A study of Bos taurus with 48 samples.

Results

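The genes described here are 8 genes of the bovine mitochondrial genome that encode subunits of the respiratory chain. They were chosen by identity, not by level, as the rows of 8 Ensembl gene identifiers, and are 8 of the 27607 genes counted in each library. All 8 were found in all 47 libraries, and all 8 passed the filter on low counts in every comparison. The count files list identifiers without symbols, so the gene names follow the selection rule. The set holds ND1 (ENSBTAG00000043558), ND4 (ENSBTAG00000043568) and ND5 (ENSBTAG00000043546) of complex I, and CYTB (ENSBTAG00000043550) of complex III. It further holds COX1 (ENSBTAG00000043561), COX2 (ENSBTAG00000043556) and COX3 (ENSBTAG00000043560) of complex IV, and ATP6 (ENSBTAG00000043584) of complex V.

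Mitochondria keep a small circular genome whose protein-coding genes all serve oxidative phosphorylation, while most subunits of the chain come from nuclear genes. Complex I takes electrons from NADH, complex III passes them from ubiquinol to cytochrome c, complex IV hands them to oxygen, and complex V uses the proton gradient to make ATP. The mitochondrial genes are transcribed as long polycistronic precursors that are cut mostly at the tRNA genes that lie between many of them. The level of each mature messenger thus also depends on its processing and decay. In the RefSeq annotation of ARS-UCD2.0 no tRNA gene lies between ATP8 and ATP6, ATP6 and COX3, ND4L and ND4, or ND5 and ND6. Liver is rich in mitochondria, and white fat cells hold few for their size.

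The study measured RNA in liver, mammary parenchyma (the branching epithelium with its stroma) and mammary fat pad (the adipose bed it grows into) of dairy calves, Bos taurus, on 3 diets. Control calves received standard nutrition after the recommendations for dairy cattle, those of the restricted diet less milk replacer a day, and those of the unlimited diet as much milk replacer as they drank in 3 meals a day of 30 min each. Total RNA depleted of ribosomal RNA was sequenced in paired reads of 150 cycles from 1 pool of libraries. The labels give no age, breed or sex, do not say whether libraries of a group come from separate calves, and do not say whether the same number in different tissues marks the same calf, so the p-values below reflect variation among these libraries, which may be partly technical. There were 4 control, 6 restricted and 6 unlimited libraries of liver and of fat pad, and 3, 6 and 6 of parenchyma. Libraries are named here by diet and by the number in their titles, and 1 further sample, a parenchyma control, was not analysed here.

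Libraries held about 5590210 to 24154600 gene counts, and a single one of the 8 genes had 539 to 278160 counts in a library, so counting error was small beside the spread between libraries. Control number 1 of liver and control number 1 of fat pad had the fewest gene counts, 5590210 and 5865400. They also list 16010900 and 14417300 reads as not aligned, where every other library lists 0. Whether these 2 controls were processed differently is not known, which limits the comparisons with control liver and fat pad. Tissue labels could not be checked against marker genes, because the other identifiers carry no names. A position was computed for each mammary library from all genes tested, with 0 at the mean of the parenchyma libraries of the restricted and unlimited diets and 1 at that of the fat pad. Fat pad libraries of these diets lay between 0.807 and 1.09 and parenchyma libraries between -0.0208 and 0.0745. The 4 fat pad controls stood apart from the other fat pad libraries, at -0.0311, 0.0278, 0.536 and 0.123 for numbers 1, 2, 18 and 21. The libraries of numbers 1 and 2 also carry PAR, the study's abbreviation for parenchyma, in their titles although their tissue label is fat pad. The parenchyma control that was not analysed here, number 2, carries PAD in its title, and whether tissue labels of these controls were exchanged is not known. Shares, levels and diet comparisons of fat pad that use these controls are therefore also given without the 2 libraries titled PAR, the comparisons as a median. Medians and orders over all 47 libraries, the likeness of other genes and the figures include them. The files list reads aligned to more than 1 place in an entry of their own, and whether such reads were also counted for a gene is not given in the sources used here. Copies of mitochondrial sequence in nuclear chromosomes and neighbouring genes that overlap can change the counts of these genes, which leaves absolute levels uncertain. In the RefSeq annotation of ARS-UCD2.0 ATP6 overlaps COX3, ND5 overlaps ND6 and COX1 overlaps the tRNA gene that follows it. Only overlap of each gene with the one that follows it was looked up. Overlap of ATP6 with ATP8 and of ND4 with ND4L, the genes directly before them, was not checked.

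Together the 8 genes took 0.363% to 3.30% of all gene counts in a library, with a median of 1.28%. The share was highest in parenchyma of the unlimited diet, at 2.63% ± 0.493 (SD, n = 6). It was 2.17% ± 0.430 (SD, n = 6) in liver of the unlimited diet. Parenchyma of the control diet had 1.68% ± 0.835 (SD, n = 3) and liver of the restricted diet 1.66% ± 0.426 (SD, n = 6). Parenchyma of the restricted diet followed with 1.27% ± 0.501 (SD, n = 6) and liver of the control diet with 1.16% ± 0.373 (SD, n = 4). The lowest shares were those of fat pad, at 0.961% ± 0.514 (SD, n = 4) in controls, 0.909% ± 0.124 (SD, n = 6) on the restricted diet and 0.843% ± 0.323 (SD, n = 6) on the unlimited diet. Without the 2 libraries titled PAR the fat pad controls had 0.556% ± 0.273 (SD, n = 2) and were the lowest instead of the highest fat pad group. The ranges of neighbours in this order overlapped, and these shares were not tested. In bulk tissue a lower share can come from fewer cells of a type or from less of this RNA in each cell, and the counts cannot tell these apart.

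**Figure D1:**
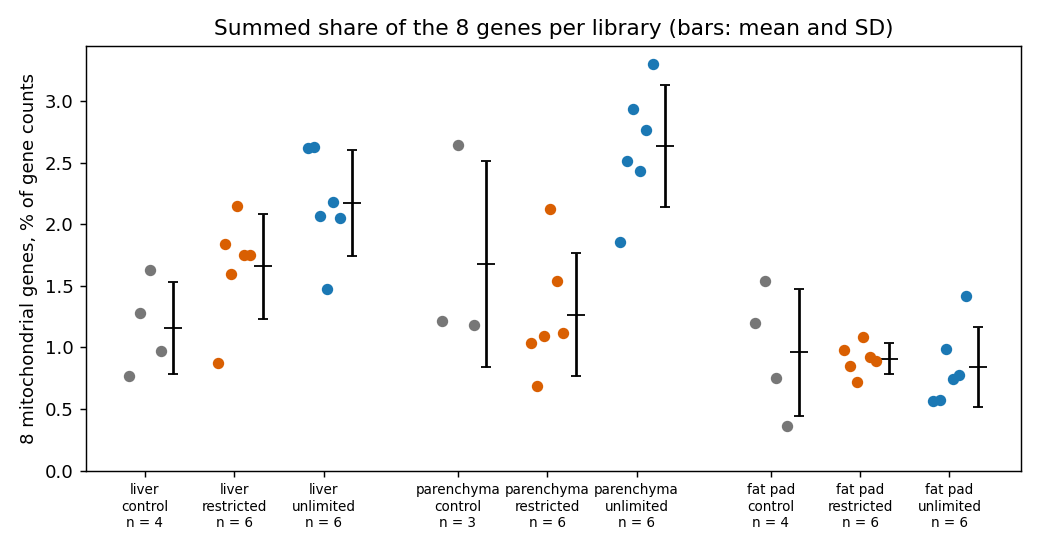
Summed share of the 8 mitochondrial genes in all gene counts of each library (y axis, percent), by tissue and diet (x axis, with the number of libraries); each point is 1 library, and the bars give the mean and SD. Parenchyma libraries of the unlimited diet lie between 1.85% and 3.30%, and fat pad libraries of the restricted and unlimited diets between 0.564% and 1.42%.

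Within groups the spread was wide. Liver controls had shares of 0.772%, 1.28%, 1.63% and 0.968% for numbers 1, 2, 18 and 21. Restricted liver ranged from 0.875% (number 4) through a median of 1.75% to 2.15% (number 10), and unlimited liver from 1.47% (number 9) through 2.13% to 2.63% (number 6). The liver groups overlapped, with restricted numbers 4 and 8 and unlimited number 9 below the highest control. Parenchyma controls had 1.22%, 2.64% and 1.18% for numbers 18, 19 and 21, so that number 19 was at the level of the median unlimited library and the others were near that of the restricted ones. Restricted parenchyma ranged from 0.683% (number 5) through 1.10% to 2.12% (number 10), and unlimited parenchyma from 1.85% (number 3) through 2.64% to 3.30% (number 11). Only restricted number 10 lay above the lowest unlimited library. Fat pad controls had 1.2%, 1.54%, 0.749% and 0.363% for numbers 1, 2, 18 and 21, so the 2 libraries titled PAR were the higher ones. Restricted fat pad ranged from 0.718% through 0.906% to 1.09%, and unlimited fat pad from 0.564% through 0.758% to 1.42%. Number 10 was the highest restricted library in all 3 tissues. Number 11 was the highest unlimited library in parenchyma and in fat pad, but not in liver, where it had 2.05%.

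Compared per kilobase of gene length (RefSeq lengths, 681 bases for ATP6 to 1821 for ND5), the 8 genes kept a nearly fixed order. COX1, the catalytic core of complex IV, was first in 47 of 47 libraries, with a median of 4455 CPM per kilobase (CPM being counts scaled to the library's total in the usual way). COX3, a structural core subunit of complex IV, was second in 41 libraries, with a median of 2106. ATP6, a subunit of the proton channel of complex V, had a median of 1731, and COX2, which receives electrons from cytochrome c, 1426. CYTB, the mitochondrially encoded core of complex III, had a median of 1159. The places of ATP6 and COX2 varied between the second and the fifth, and that of CYTB between the fourth and the fifth, so their order was not fixed. ND1, which helps form the site where ubiquinone binds, had a median of 836 and was sixth in 47 of 47 libraries. ND4 and ND5, proton-pumping subunits of complex I, had medians of 223 and 188 and were the last 2 in 47 of 47 libraries, ND5 the lower of them in 32 and ND4 in 15.

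**Figure D2:**
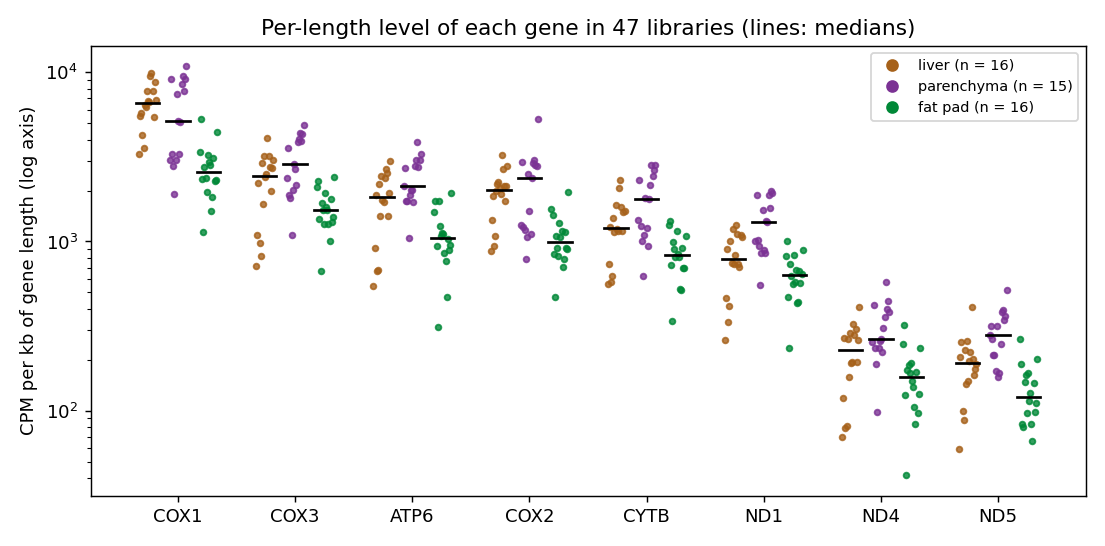
Level of each of the 8 genes per kilobase of RefSeq gene length (y axis, CPM per kilobase, log axis) in each of the 47 libraries, coloured by tissue; lines mark the median of each tissue. COX1 is the highest and ND4 and ND5 are the lowest in all 3 tissues.

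In each tissue the medians per kilobase kept COX1 first, COX3 second and ND4 and ND5 last. COX1 had 6550 in liver, 5182 in parenchyma and 2567 in fat pad. For CYTB the medians were 1203, 1788 and 831, and for ND1 they were 791, 1297 and 635. ND5 had 192, 279 and 121. On this scale COX1 alone had its highest median in liver, and all the other genes had theirs in parenchyma. In liver and parenchyma COX2 had 2027 and 2360, COX3 2453 and 2872, ATP6 1827 and 2133 and ND4 227 and 264. Without the 2 libraries titled PAR the fat pad medians were 2360 for COX1, 810 for CYTB, 601 for ND1 and 112 for ND5.

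The make-up of the 8-gene count differed between liver and the mammary tissues. Complex IV genes held 77.0% ± 2.94 (SD, n = 16) of it in liver, 67.9% ± 4.32 (SD, n = 15) in parenchyma and 68.9% ± 2.88 (SD, n = 16) in fat pad. Complex I genes held 8.03% ± 1.19, 12.2% ± 2.03 and 12.0% ± 0.995 in the same tissues, and CYTB 8.25% ± 0.852, 10.6% ± 1.01 and 10.9% ± 1.04. ATP6 held 6.68% ± 1.47, 9.19% ± 1.85 and 8.26% ± 1.66. COX1 alone ranged from 38.3% to 67.7% of the 8-gene count over all libraries. Its share was 59.4% ± 4.75 (SD, n = 16) in liver, with a lowest value of 51.4%, and 47.3% ± 5.12 (SD, n = 15) in parenchyma, with a highest value of 54.0%. In fat pad it was 46.8% ± 3.25 (SD, n = 16), with a highest value of 53.2%, so that the tissues overlapped slightly. Without the 2 libraries titled PAR fat pad had 46.5% ± 2.85 (SD, n = 14) with a highest value of 49.6%, below all liver libraries, and its complex IV share was 68.9% ± 2.93. Its complex I genes then held 11.9% ± 0.970, CYTB 10.9% ± 1.03 and ATP6 8.29% ± 1.77. By diet the COX1 share was 63.8% in control, 58.7% in restricted and 57.3% in unlimited liver, against 45.1%, 46.5% and 49.2% in parenchyma. These shares are a description and were not tested.

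**Figure D3:**
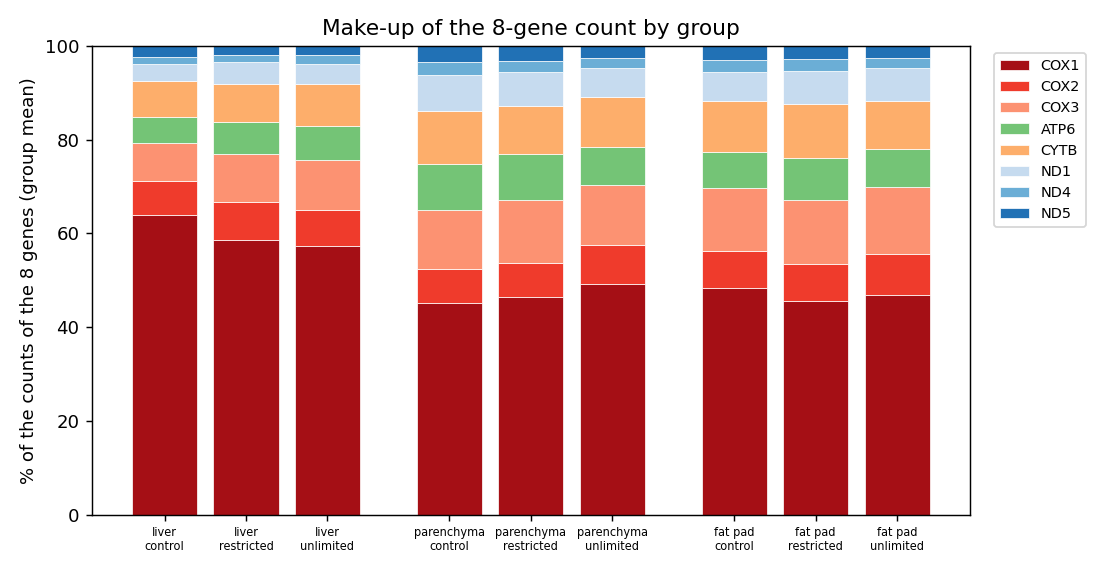
Mean share of each gene in the summed counts of the 8 genes (y axis, percent), stacked for each of the 9 tissue and diet groups (x axis). COX1, at the bottom of each bar, is the largest part, with 59.4% on average in liver, 47.3% in parenchyma and 46.8% in fat pad.

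The 8 genes moved together across libraries. Over the 28 gene pairs, Pearson's r of log2 CPM in 47 libraries was 0.725 to 0.963. With the mean of each group taken off it was 0.675 to 0.947, with a median of 0.865. Without the 2 libraries titled PAR these ranges were 0.740 to 0.970 and 0.634 to 0.935. The libraries share depth, tissue and the denominator of the scale, so these values are descriptive. Among 10196 genes in all 47 libraries with a mean of at least 10 CPM, the pattern most like the mean of the 8 genes was that of ENSBTAG00000043577 (r = 0.958 over 47 libraries), followed by ENSBTAG00000043563 (r = 0.956). With group means taken off, the most alike were ENSBTAG00000043577 (r = 0.942) and ENSBTAG00000043571 (r = 0.936). The files give no names for these identifiers.

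In parenchyma, libraries of the unlimited diet had higher levels of all 8 genes than those of the restricted diet. All 8 rose at an adjusted p under 0.05 in edgeR's quasi-likelihood test with Benjamini-Hochberg adjustment over all genes tested. Of those 14117 genes, 7.86% were called higher and 12.6% were called in either direction. The median log2 fold change of the 8 genes was 1.12, against -0.02 over all genes tested. Levels below are CPM on plain gene totals, and fold changes come from the fit on counts with TMM scaling.

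In complex I, ND1 had 528 CPM in the lowest, 835 in the median and 1465 in the highest restricted library. Its unlimited libraries had 1240, 1664 and 1891, so the groups overlapped through restricted number 10. The log2 fold change of ND1 was 0.96 (SE 0.21, edgeR adjusted p = 0.0099). ND4 had 136, 315 and 363 CPM on the restricted diet and 422, 537 and 796 on the unlimited diet, with no overlap. Its log2 fold change was 1.09 (SE 0.22, edgeR adjusted p = 0.00639). ND5 had 287, 350 and 573 on the restricted and 449, 675 and 947 on the unlimited diet, with overlap through restricted number 10. It rose by 1.00 on the log2 scale (SE 0.19, edgeR adjusted p = 0.00564).

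CYTB, in complex III, had 716, 1192 and 2056 CPM in the lowest, median and highest restricted library and 2038, 2897 and 3243 on the unlimited diet. Its groups touched only where the highest restricted library met the lowest unlimited one. The log2 fold change of CYTB was 1.27 (SE 0.22, edgeR adjusted p = 0.00338).

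In complex IV, COX1 had 2967, 4855 and 11469 CPM on the restricted and 7817, 13612 and 16745 on the unlimited diet. Its groups overlapped, and its SE was the largest of the 8 genes. It rose by 1.22 on the log2 scale (SE 0.31, edgeR adjusted p = 0.019). COX2 had 537, 773 and 1718 on the restricted and 1614, 1963 and 3645 on the unlimited diet, and the largest log2 fold change of the 8, 1.38 (SE 0.28, edgeR adjusted p = 0.00841). The highest unlimited library of COX2 was number 11, whose level stood far from the others. COX3 had 852, 1632 and 2243 on the restricted and 3040, 3258 and 3820 on the unlimited diet, with no overlap. It rose by 1.14 on the log2 scale (SE 0.21, edgeR adjusted p = 0.00413).

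ATP6, in complex V, had 713, 1231 and 1379 CPM on the restricted and 1881, 2060 and 2648 on the unlimited diet, with no overlap. Its log2 fold change was 0.98 (SE 0.17, edgeR adjusted p = 0.00295). Without overlap were thus 3 of the 8 genes, ND4, COX3 and ATP6, where 1.68% of all genes tested were higher without overlap.

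**Figure D4:**
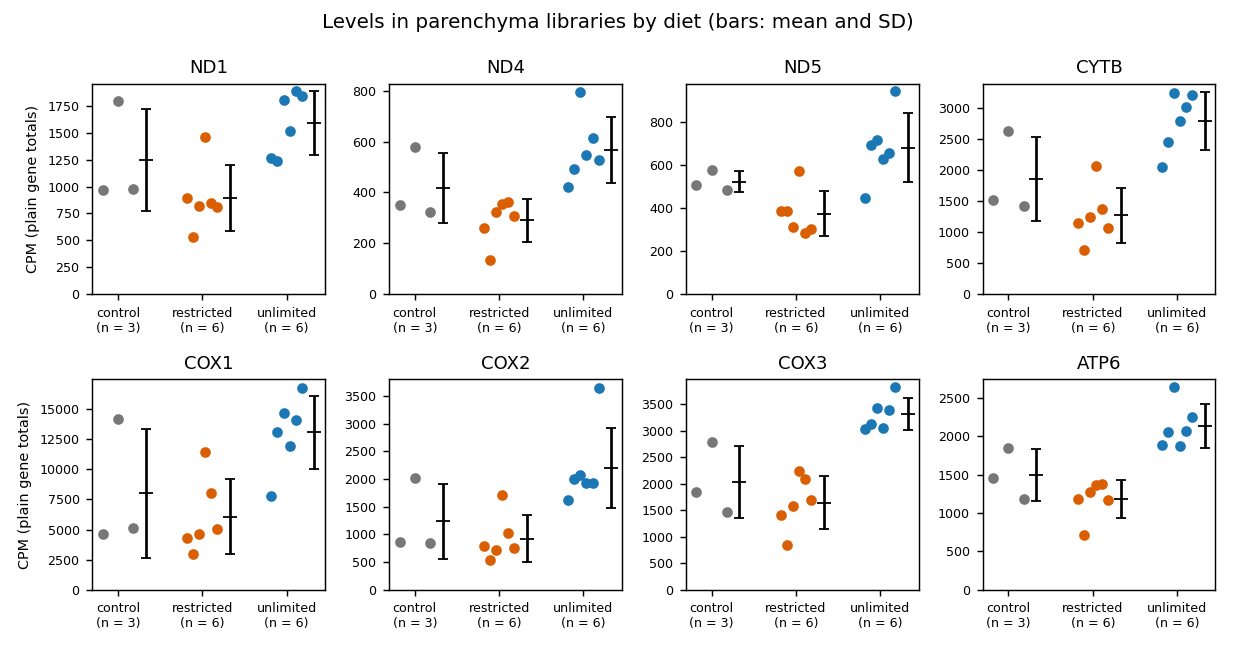
Level of each of the 8 genes in each parenchyma library (y axes, CPM of plain gene totals, each starting at 0), by diet (x axes); bars give the mean and SD. In ND4, COX3 and ATP6 all 6 unlimited libraries lie above all 6 restricted ones, and in each panel 1 of the 3 controls, number 19, is above the others.

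The same 8 genes were called by DESeq2, with adjusted p from 3.98e-07 to 0.000445, where it called 2597 of 14117 genes tested in either direction. When single libraries were left out all 8 stayed called, except COX1 without restricted number 16 (edgeR adjusted p = 0.0501). Position moved with the diet, from -0.0153 to 0.0745 with a median of 0.0399 in restricted and from -0.0208 to 0.00784 with a median of -0.00757 in unlimited parenchyma. Restricted number 10, highest in the summed share, had the lowest position of its group, and number 5, lowest in the share, had the highest. In a fit with position as a covariate none of the 8 genes was called by edgeR, with log2 fold changes of 0.38 to 0.78. Their adjusted p was 0.238 to 0.543, and 6 of the 8 had an unadjusted p under 0.05, as had 1830 of 14117 genes tested. Over all 14117 genes tested that fit called 3, against 1777 without the covariate, so the loss of calls was not particular to the 8 genes. Position was computed from genes that include these 8. The share of uniquely placed reads that fell in genes was 34.0% ± 7.76 (SD, n = 6) on the restricted and 39.2% ± 4.86 (SD, n = 6) on the unlimited diet. With that share as a covariate 7 of the 8 were called, where 765 of 14117 genes tested were. COX1 then had a log2 fold change of 1.11 and an edgeR adjusted p of 0.0883.

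Against the control diet, with the same unlimited libraries, unlimited parenchyma was higher in 3 of the 8 genes by edgeR, where 7.42% of 15119 genes tested were called higher and 12.4% in either direction. COX3 had 1843, 2797 and 1476 CPM in controls 18, 19 and 21, all below the lowest unlimited library, and rose by 0.90 on the log2 scale (SE 0.20, edgeR adjusted p = 0.0147). ATP6 had 1453, 1854 and 1178, also without overlap, and rose by 0.71 (SE 0.17, edgeR adjusted p = 0.0206). CYTB had 1520, 2630 and 1416, the middle value overlapping the unlimited libraries, and rose by 0.78 (SE 0.23, edgeR adjusted p = 0.0421). Higher without overlap were COX3 and ATP6, where 5.05% of all genes tested were. The other 5 genes had log2 fold changes of 0.55 to 1.03 that did not pass, with edgeR adjusted p of 0.0708 to 0.146. All 8 had an unadjusted p under 0.05, as had 4259 of 15119 genes tested. The control libraries decided the count of calls. Without control 19 it was 7, without control 18 it was 0 and without control 21 it was 1, and it was 4 without unlimited number 3 and 2 without each of the other unlimited libraries. DESeq2 called 7, where it called 2736 of 15119 genes tested. Scaling by total gene counts left 1, COX3, where 3121 of all genes were called. With the 2 libraries titled PAR counted as parenchyma controls, all 8 were called, where 2062 of 14580 genes tested were.

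Between restricted and control parenchyma no gene of the 8 was called by edgeR or by DESeq2. None had an unadjusted p under 0.05, where 2165 of 14881 genes tested had one. The log2 fold changes in edgeR were -0.48 (CYTB) to -0.24 (COX3), with SEs of 0.21 to 0.48 and adjusted p of 0.402 to 0.805. Over all genes 0.329% were called in either direction, and 2.92% were higher without overlap, as none of the 8 was. COX1 had 4659, 14193 and 5108 CPM in controls 18, 19 and 21, a spread that reached past the highest restricted library.

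In liver, levels on the unlimited diet overlapped those on the restricted diet in all 8 genes, where 0.841% of all genes tested were higher without overlap. COX1 had 5533 CPM in the lowest, 10119 in the median and 11946 in the highest restricted library and 8461, 12778 and 15291 on the unlimited diet. CYTB had 712, 1339 and 1879 on the restricted and 1314, 1774 and 2637 on the unlimited diet. Log2 fold changes ran from 0.09 (ND1) to 0.44 (ND4), with edgeR adjusted p of 0.483 to 0.891. None was called by edgeR or DESeq2, where edgeR called 0.0143% of all genes tested in either direction. None had an unadjusted p under 0.05, where 1984 of 14030 genes tested had one.

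Against the control diet, unlimited liver had higher means in all 8 genes but no call by edgeR. The log2 fold changes were 0.48 for ND5, 0.67 for COX1, 0.88 for COX2, 0.95 for ND1, 1.03 for CYTB, 1.10 for ND4, 1.16 for COX3 and 1.17 for ATP6. Adjusted p ranged from 0.135 to 0.681, where 0.482% of all genes tested were called in either direction and 0.411% higher. Of the 8 genes, 7 had an unadjusted p under 0.05, as had 1409 of 14114 genes tested. None of the 8 was without overlap, where 2.29% of all genes tested were higher without it. DESeq2 called 7 of the 8, where it called 282 of 14114 genes tested. Control number 18 was the highest control in all 8 genes, with 1738 CPM of COX3 against 559 in the lowest control, and without it edgeR called 4 genes, ND1, ND4, COX3 and ATP6. Without control number 1 edgeR called none. The share of uniquely placed reads in genes was 28.5% ± 5.28 (SD, n = 4) in controls and 30.9% ± 4.94 (SD, n = 6) on the unlimited diet. With it as a covariate 3 were called, where 50 of 14114 genes tested were. Restricted against control liver gave log2 fold changes of 0.32 to 0.94 and no call by edgeR (lowest adjusted p = 0.195). There 5 of the 8 genes had an unadjusted p under 0.05, as had 1907 of 14238 genes tested. By edgeR 0.85% of all genes were called. DESeq2 called 1 of the 8, where it called 543 of 14238 genes tested.

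In fat pad no diet comparison passed the test for any of the 8 genes. Unlimited against restricted gave log2 fold changes of -0.28 (CYTB) to 0.05 (COX2), with edgeR adjusted p of 0.662 to 0.984. None of the 8 had an unadjusted p under 0.05, where 1316 of 15203 genes tested had one. DESeq2 made no call among the 8, and edgeR called 0% of all genes tested. COX1 had 3027, 4307 and 5038 CPM in the lowest, median and highest restricted library and 2329, 3550 and 6883 on the unlimited diet, the unlimited range holding the restricted one. Over all genes 0.0987% were higher on the unlimited diet without overlap. CYTB had 919, 1001 and 1323 on the restricted and 586, 797 and 1234 on the unlimited diet. Against the control libraries, log2 fold changes were -0.44 to -0.15 on the restricted and -0.64 to -0.21 on the unlimited diet. None of these was called by edgeR or DESeq2 or had an unadjusted p under 0.05. By edgeR 25.5% and 27.5% of all genes tested were called in either direction and 12.6% and 13.8% higher. An unadjusted p under 0.05 was found in 6106 of 15712 and in 6344 of 15441 genes tested. Without the 2 libraries titled PAR the median log2 fold change of the 8 genes turned from -0.26 to 0.66 on the restricted and from -0.38 to 0.59 on the unlimited diet, still with no call.

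**Figure D5:**
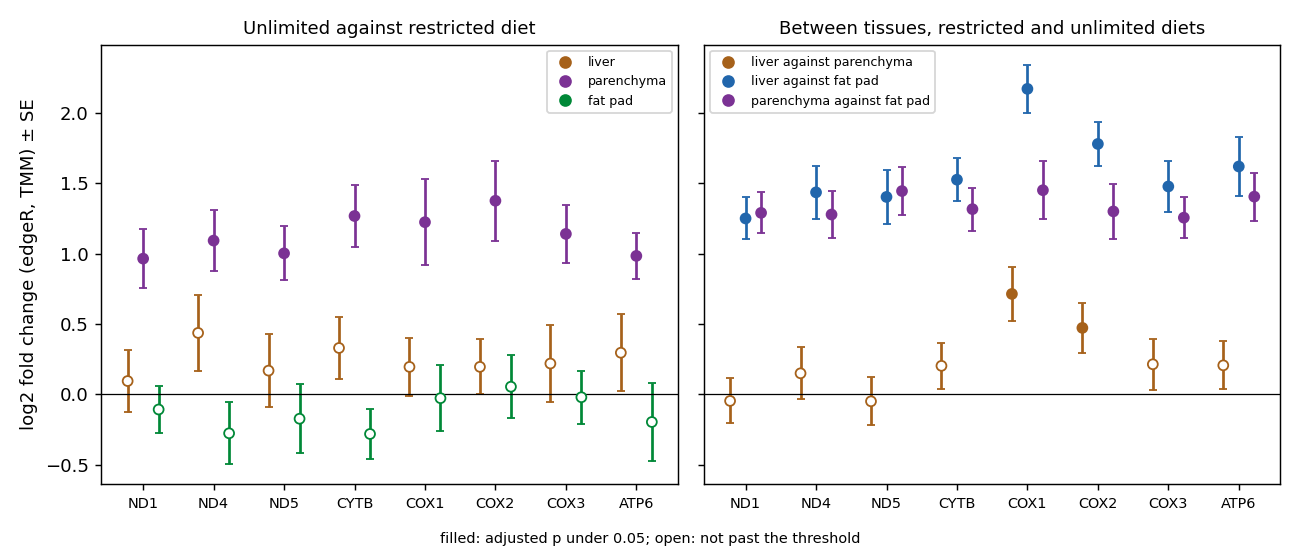
Log2 fold change with its SE (y axis, edgeR with TMM scaling) of each of the 8 genes (x axis) for unlimited against restricted in each tissue (left) and between tissues on the restricted and unlimited diets (right); filled points passed an adjusted p under 0.05 and open points did not. On the left all 8 parenchyma points lie between 0.96 and 1.38 and are filled, and the liver and fat pad points lie between -0.28 and 0.44 and are open.

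The diet difference was compared between tissues with an interaction term, which is the log2 fold change of unlimited against restricted in one tissue minus that in the other. Parenchyma minus fat pad was positive in all 8 genes, from 1.07 (ND1) to 1.55 (CYTB), and passed in 2 of them. CYTB had 1.55 (SE 0.30, edgeR adjusted p = 0.018) and ND4 1.36 (SE 0.33, edgeR adjusted p = 0.0484), where 0.61% of 16077 genes tested were called higher and 0.778% in either direction. The other 6 had edgeR adjusted p of 0.0559 to 0.144, all with an unadjusted p under 0.05, where 2374 of 16077 genes tested had one. The count of calls rested on single numbers. It was 0 without number 4 or 15, 7 without number 10 or 11, and 1 without 3, 5, 6, 7, 8, 9 or 16. DESeq2 called all 8, where it called 479 of 16077 genes tested. Scaling by total gene counts left CYTB alone, where 141 of all genes were called.

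Parenchyma minus liver was also positive in all 8 genes, from 0.67 (ND4) to 1.19 (COX2). Only COX2 passed, with 1.19 (SE 0.35, edgeR adjusted p = 0.0391), where 5.21% of 15629 genes tested were called higher and 7.41% in either direction. It passed in no fit that left out a number other than 3 or 10, and not when scaled by total gene counts (log2 0.89, edgeR adjusted p = 0.0757). Without number 10 the count was 4, and DESeq2 called 3, where it called 1808 of 15629 genes tested. Fat pad minus liver gave -0.70 to -0.13, with no call by edgeR or DESeq2 and 0% of all genes tested called by edgeR. None of the 8 had an unadjusted p under 0.05, where 2123 of 16228 genes tested had one.

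Between tissues, on the restricted and unlimited diets together, all 8 genes were lower in fat pad than in liver, where 36.8% of 16228 genes tested were called higher in liver and 77.9% in either direction. COX1 had 5533 to 15291 CPM in 12 liver libraries (median 10500) and 2329 to 6883 in 12 fat pad libraries (median 3966), with overlap. Its log2 fold change, 2.17 (SE 0.17, edgeR adjusted p = 1.76e-11), was the largest of the 8. COX2 followed with 1.78 (SE 0.16) and ATP6 with 1.62 (SE 0.21), and CYTB had 1.53 (SE 0.15). COX3 had 1.48 (SE 0.18), ND4 1.44 (SE 0.19), ND5 1.40 (SE 0.19) and ND1 1.25 (SE 0.15). The edgeR adjusted p of these 8 were at most 3.06e-07. Scaling by total gene counts moved the median of the 8 from 1.5 to 0.75 and that of all genes tested from -0.06 to -0.81. All 8 were still called, where 13814 of 16228 genes tested were, 3014 of them higher in liver.

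All 8 genes were also higher in parenchyma than in fat pad, where 31.8% of 16077 genes tested were called higher and 66.2% in either direction. The log2 fold changes lay close together, from 1.26 (COX3) to 1.45 (COX1), with SEs of 0.15 to 0.21 and edgeR adjusted p of 2.21e-08 to 2.23e-06. They average the 2 diets, and the interaction of parenchyma minus fat pad above was positive in all 8 genes. The mean summed share was 1.27% in parenchyma and 0.909% in fat pad on the restricted diet, against 2.63% and 0.843% on the unlimited diet. The tissues were not tested within a single diet. COX1 had 2967 to 16745 CPM in the 12 parenchyma libraries, with a median of 9737. In no tissue comparison was any of the 8 genes without overlap on plain CPM, where 9.03% of all genes tested were higher without overlap in liver than in fat pad, 4.93% in parenchyma than in fat pad and 10.7% in liver than in parenchyma.

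Liver and parenchyma differed in 2 of the 8 genes by edgeR, both of complex IV and both higher in liver, where 36.9% of 15629 genes tested were called higher and 75.5% in either direction. COX1 was higher by 0.71 on the log2 scale (SE 0.19, edgeR adjusted p = 0.00181) and COX2 by 0.47 (SE 0.18, edgeR adjusted p = 0.0185). The other 6 lay between -0.05 and 0.21 and did not pass. These values average the 2 diets. On the restricted diet the median plain CPM of COX1 was 10119 in liver and 4855 in parenchyma, and that of COX2 1387 and 773. On the unlimited diet COX1 had 12778 and 13612 and COX2 1641 and 1963, so both medians were higher in parenchyma there. The tissues were not tested within a single diet. The calls of COX1 and COX2 also depended on the scaling. With total gene counts 2 other genes were called, ND1 and ND5. Both were lower in liver, each at -0.47 on the log2 scale (edgeR adjusted p = 0.00874 and 0.0156). Of all 15629 genes tested, 12327 were then called, and 8501 of these were lower in liver. On that scale COX1 had 0.30 (edgeR adjusted p = 0.147) and COX2 0.06 (edgeR adjusted p = 0.773), and the median of all genes tested moved from -0.02 to -0.44, close to the values of ND1 and ND5. Scaling by the total of the other genes gave the same 2 calls. COX2 was also not called without number 3 or 5.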

How the data were processed

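The deposited files hold counts of read pairs per Ensembl gene, 1 file per library, made by the authors with STAR 2.7.8, HTSeq 1.99.2 and the ARS-UCD1.2 build, per the submitters' processing notes. Neither the handling of strand nor that of reads aligned to more than 1 place is stated in the labels or files. The 5 summary entries that name no gene (no feature, ambiguous and the like) stayed out of library sizes and tests. Reads in no feature were 53.0% to 78.0% of uniquely placed reads, and ambiguous reads 0.242% to 0.654%. No 2 of the 47 libraries were identical.

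Counts were tested in R 4.3.3 with edgeR 4.0.16 (TMM factors, filterByExpr with a minimum count of 10 and a minimum total count of 15, glmQLFit and glmQLFTest), with Benjamini-Hochberg adjustment over all genes tested and a threshold of 0.05. Each diet comparison used the 2 diets of 1 tissue. Tissue comparisons and interactions used the restricted and unlimited libraries of 2 tissues. The scripts were tested on simulated data. DESeq2 1.42.0, other scalings, no filter, covariates, all 3 diets in 1 fit, added controls, a block on library number and leaving out each library were the alternatives. Tissue comparisons leave out all libraries of 1 number at a time. Levels are CPM (counts scaled to the total of all genes). Patterns were compared by Pearson's r of log2(CPM + 0.5).

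The 8 genes, the lists and the alternatives were chosen with earlier results of these data known. The named genes are the 8 members and the 2 identifiers most like their mean on each scale. Lists of other respiratory chain genes and tissue markers could not be run, since the files hold identifiers only. Gene lengths, neighbours and overlaps come from the gene coordinates in the RefSeq annotation of ARS-UCD2.0, and no sequence was used. Total gene counts were about 5590210 to 24154600 per library, so counting error was small for all 8 genes.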

Additional observations from a re-analysis of the deposited data

Results flagged for a closer look

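For the 8 genes and their summed share, each in the groups of 4 or 6 libraries, 1 library lay far from the others by Dixon's test in 7 of 72 sets, where chance flags about 1 in 20. ND5 had 747 CPM in unlimited liver number 6, against 294 to 405 in the others of its group. ND5 also had 573 in restricted parenchyma number 10, against 287 to 388. In restricted liver, number 4 had 5533 CPM of COX1, against 9667 to 11946, and 734 of COX2, against 1311 to 1527. COX2 had 1336 in unlimited fat pad number 11, against 483 to 781, and 3645 in unlimited parenchyma number 11, against 1614 to 2067. ATP6 had 713 in restricted parenchyma number 5, against 1173 to 1379. The 2 COX2 values of number 11 lie in 2 tissues of 1 diet, and the labels do not say whether they come from 1 calf.

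The difference of unlimited against restricted was larger in parenchyma than in another tissue for 3 genes by the interaction term in edgeR. For COX2 the log2 difference between parenchyma and liver was 1.19 (adjusted p = 0.0391). For ND4 and CYTB the log2 difference between parenchyma and fat pad was 1.36 (adjusted p = 0.0484) and 1.55 (adjusted p = 0.018). CYTB was not called without number 4 or 15, and ND4 was called only in the fits without number 10, 11 or 13. COX2 was called only in those without number 3 or 10.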

How the results depend on the processing

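Calls of 8 genes in parenchyma between unlimited and restricted held in all alternatives except the covariate fits and the fit without restricted number 16 (7 to 8 over left-out libraries). With position as a covariate 0 were called, where 3 of all 14117 genes tested were. For unlimited against control parenchyma the count was 3, and 1 with total gene counts, 1 with the total of other genes, 7 with DESeq2, 8 with the libraries titled PAR as parenchyma controls, and 0 to 7 over left-out libraries. For unlimited against control liver it was 0, and 7 with DESeq2, 3 with the assigned share as a covariate, and 0 to 4 over left-out libraries. DESeq2 called 1 gene between restricted and control liver. In comparisons where it called none of the 8, DESeq2 still called other genes. These were 650 between restricted and control parenchyma, 386 between unlimited and restricted liver and 3 between unlimited and restricted fat pad. Against control fat pad they were 5062 on the restricted and 5429 on the unlimited diet, and 156 in the interaction of fat pad minus liver. Between liver and parenchyma 2 were called higher in liver (COX1 and COX2), 0 higher and 2 lower (ND1 and ND5) with either total, 1 with controls added and 1 to 2 over left-out numbers, and the median log2 fold change turned from 0.20 to -0.22 with total gene counts, -0.22 with the total of other genes and -0.0601 with controls added. There 12327 of 15629 genes were called with total gene counts, 12326 with the total of other genes and 12701 of 16764 with controls added. The interaction of parenchyma minus liver gave 1 call, 0 with total gene counts and 0 with the total of other genes. It gave 3 with DESeq2 and 0 to 4 over left-out numbers. Of all 15629 genes tested, 2384 were called with total gene counts and 2253 with the total of other genes. The interaction of parenchyma minus fat pad gave 2 calls, 1 with total gene counts and 1 with the total of other genes. It gave 1 with no filter, 8 with DESeq2 and 0 to 7 over left-out numbers. Over all genes 76 of 23930 were called with no filter and 118 of 16077 with the total of other genes. The cause of these changes was not tested.

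As a share of uniquely placed reads the 8 genes held 0.318%, 0.603% and 0.656% in control, restricted and unlimited liver, 0.657%, 0.427% and 1.05% in parenchyma and 0.352%, 0.318% and 0.339% in fat pad, a larger denominator by construction.

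Same-numbered libraries of 2 tissues did not meet the rule used for a pairing, which needed every r of their deviations above 0.1. This r was -0.0481 to 0.159 between liver and fat pad, -0.00781 to 0.149 between liver and parenchyma and -0.00399 to 0.157 between parenchyma and fat pad. The library of the same number was the best match for 6, 9 and 8 of 12 libraries, a hint from the data and not the design. Each match was chosen among the 6 libraries of the same diet in the other tissue. The rule therefore does not show that the libraries are unpaired, and the main tissue comparisons and interactions treated them as independent. With the number as a replicate block, the parenchyma minus fat pad interaction gave 8 calls, where 299 of 16077 genes tested were called. The block changed no other count of the 8 genes in the tissue comparisons. Of the other values recomputed, 306 stayed on their side of the threshold or, with no test, moved by less than the spread between libraries, 24 kept their direction but no longer passed, 6 moved by more than the spread between libraries and 3, the medians between liver and parenchyma above, reversed. In fat pad, with no gene called, the median log2 fold change also changed sign without the libraries titled PAR (restricted against control from -0.26 to 0.66, unlimited against control from -0.38 to 0.59), with the assigned share as a covariate (unlimited against control 0.11, unlimited against restricted 0.03) and without control 1 or 2 (restricted against control 0.01 and 0.03). The share without the libraries titled PAR was chosen after seeing the data.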
